A study of Caenorhabditis elegans with 2 samples.

Results

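The genes described here encode the machinery that turns fuel into ATP in Caenorhabditis elegans. The measurement is a peak signal near their transcript starts, from chromatin precipitated through the nuclear hormone receptor NHR-120 tagged with green fluorescent protein (GFP). Members were taken by symbol from the protein-coding genes of the Ensembl annotation of WBcel235: nuo-, sdha-, sdhb-, ucr-, cox- or atp- followed by a number for the respiratory list, and hxk-, gpi-, pfk-, aldo-, tpi-, gpd-, pgk-, ipgm-, enol- or pyk- followed by a number for the glycolytic list. The rule gave 52 genes, 34 respiratory and 18 glycolytic, of 19985 protein-coding genes. All 52 lie on nuclear chromosomes. No ranked peak fell on the mitochondrial genome, whose 12 protein-coding genes carry other symbols in this annotation, so the subunits encoded there were not measured.

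The series holds 1 group, chromatin immunoprecipitated with an antibody against GFP from whole young adult worms of strain OP415, in 2 biological replicates. The worms carried the integrated transgene wgIs415, a fosmid with nhr-120::TY1 EGFP 3xFLAG, with unc-119(+) as the rescuing marker in an unc-119(tm4063) background, and they were collected as young adults, at 64 hours, from cultures synchronised by bleaching and L1 starvation. The tagged receptor is expressed from a fosmid insertion, 1 transgenic strain supplied both replicates, and whole animals mix all tissues. There is therefore no contrast between conditions, and a signal cannot be assigned to a tissue. A control library was not analysed here. The peak lists carry no read counts, so the depth behind a value is unknown.

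Glycolysis splits glucose into pyruvate in the cytosol, and the electron transport chain of the inner mitochondrial membrane passes electrons from NADH and succinate to oxygen through complexes I to IV, building the proton gradient that ATP synthase spends. Nuclear hormone receptors are zinc-finger transcription factors, many of which respond to small lipophilic molecules, and nematodes have a greatly expanded set. Several worm receptors are known regulators of lipid and energy metabolism.

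Each gene was given the highest authors' peak signal among peaks whose summit lay within 1 kb of any of its transcript starts, in a ranked list built from both replicates. This signal has no stated scale, so it was also read as a percentile, the share of the 17792 protein-coding genes with such a summit that had a lower signal. The authors' thresholded list is much shorter, 610 of 115573 ranked peaks, and all of its peaks had a global irreproducible discovery rate (IDR) of at most 0.01 in the ranked list used.

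Near the top of the members stood 4 genes with a summit in the thresholded list. They were cox-5A, a subunit of cytochrome c oxidase, nuo-5, the iron-sulphur subunit of complex I that corresponds to mammalian NDUFS1, and gpd-3 and gpd-1, both glyceraldehyde-3-phosphate dehydrogenases. The highest peaks of nuo-5 and the gpd genes are shown because both lie on coding sequence, that of nuo-5 at the start of the gene and those of the gpd genes far inside it. All are given 5′ to 3′ on the strand of the member gene, in WBcel235 coordinates. In the nuo-5 peak (chrV:2698890-2699153, plus strand) the capitals mark the coding bases of the first exon.
nuo-5: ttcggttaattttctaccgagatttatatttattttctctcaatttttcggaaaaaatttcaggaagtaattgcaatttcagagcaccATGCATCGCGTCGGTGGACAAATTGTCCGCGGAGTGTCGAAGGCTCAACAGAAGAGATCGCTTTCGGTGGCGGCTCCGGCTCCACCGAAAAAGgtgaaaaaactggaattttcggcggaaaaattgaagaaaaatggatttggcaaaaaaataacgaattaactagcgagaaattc

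The gpd peaks are shown together because the genes are near copies of one another. Here the capitals mark bases covered by 30-base words that lie wholly inside the peak and have more than 1 copy in the genome, counting both strands. Words that run past an end of a peak were not marked, so lower case within 29 bases of an end can still belong to a repeated word. The peaks are gpd-1 (chrII:10394825-10395088, plus strand), gpd-4 (chrII:10171996-10172259, plus strand), gpd-2 (chrX:3113671-3113934, minus strand) and gpd-3 (chrX:3112389-3112652, minus strand).
gpd-1: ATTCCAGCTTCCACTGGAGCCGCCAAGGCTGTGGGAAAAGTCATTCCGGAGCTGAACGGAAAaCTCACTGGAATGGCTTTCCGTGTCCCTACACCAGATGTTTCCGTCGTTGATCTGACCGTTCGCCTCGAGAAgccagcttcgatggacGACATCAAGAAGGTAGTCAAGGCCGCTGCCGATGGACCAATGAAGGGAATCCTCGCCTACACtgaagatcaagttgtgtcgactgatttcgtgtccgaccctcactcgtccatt
gpd-4: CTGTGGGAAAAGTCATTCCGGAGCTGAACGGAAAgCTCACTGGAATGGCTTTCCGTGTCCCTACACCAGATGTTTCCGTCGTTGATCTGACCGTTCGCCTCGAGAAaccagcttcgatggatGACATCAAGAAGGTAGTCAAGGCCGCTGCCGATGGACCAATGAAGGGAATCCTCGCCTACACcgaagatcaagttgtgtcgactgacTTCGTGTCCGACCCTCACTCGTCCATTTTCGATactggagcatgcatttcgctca
gpd-2: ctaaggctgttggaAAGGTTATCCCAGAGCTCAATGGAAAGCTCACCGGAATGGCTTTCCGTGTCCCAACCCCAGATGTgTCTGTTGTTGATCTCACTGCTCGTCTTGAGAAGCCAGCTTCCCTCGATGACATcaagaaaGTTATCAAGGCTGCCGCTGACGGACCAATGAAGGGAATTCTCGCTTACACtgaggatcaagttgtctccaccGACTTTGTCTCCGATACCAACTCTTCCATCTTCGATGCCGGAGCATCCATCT
gpd-3: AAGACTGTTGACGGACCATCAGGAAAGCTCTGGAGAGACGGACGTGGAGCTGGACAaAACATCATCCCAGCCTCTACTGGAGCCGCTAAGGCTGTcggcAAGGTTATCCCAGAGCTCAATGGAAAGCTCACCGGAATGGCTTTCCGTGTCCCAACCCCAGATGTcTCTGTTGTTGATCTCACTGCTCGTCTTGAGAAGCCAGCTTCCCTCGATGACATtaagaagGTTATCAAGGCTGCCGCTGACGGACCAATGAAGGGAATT

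As a set, the respiratory genes sat in the middle of the genome's range and the glycolytic genes somewhat above it, while the replicates did not give the same order of the lists. A ranked summit lay within 1 kb of 33 of 34 respiratory genes and 18 of 18 glycolytic genes, against 17792 of 19973 nuclear protein-coding genes. The exception was cox-14, named for a yeast assembly factor of cytochrome c oxidase, which had no ranked summit there. Among genes with a summit, the median signal was 34.6 over the respiratory genes, 39.3 over the glycolytic genes and 34.4 over all protein-coding genes. In percentiles among all protein-coding genes these medians were 50.7 for respiratory and 65.2 for glycolytic genes. Values above the middle of all protein-coding genes were found at 17 of 33 respiratory and 14 of 18 glycolytic genes. The uppermost 10% of all protein-coding genes held 5 respiratory genes (15.2%) and 5 glycolytic genes (27.8%), and the lowest 25% held 6 respiratory genes and 1 glycolytic gene. Without the gpd genes, the uppermost 10% held 2 of the other 14 glycolytic genes (14.3%). The curves of the respiratory genes and of all protein-coding genes crossed each other through the middle of the range, whereas the glycolytic curve lay at higher signal over most of it.

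**Figure D1:**
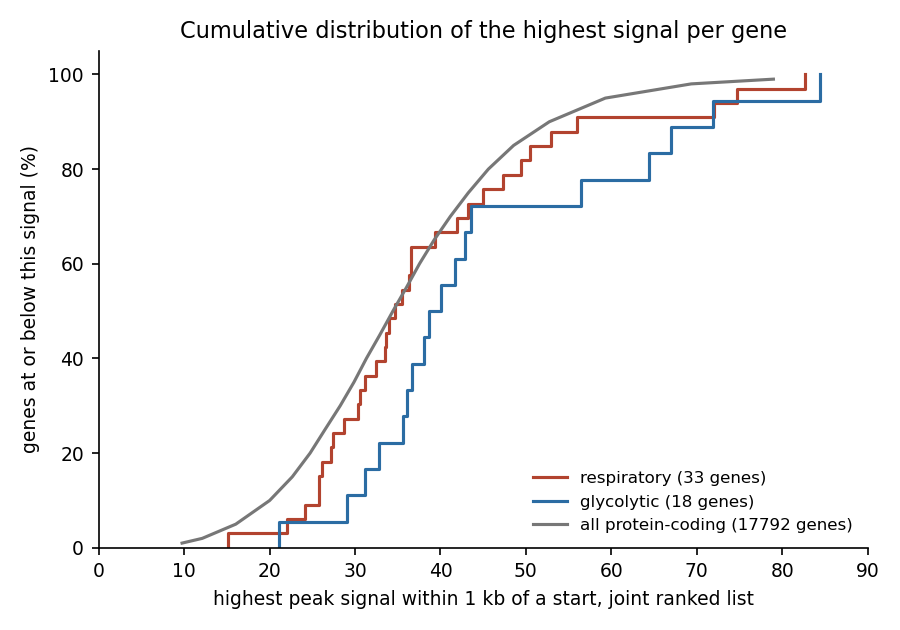
Cumulative share of genes (vertical axis, %) at or below a given highest peak signal within 1 kb of a start (horizontal axis, the authors' signal) for 33 respiratory genes, 18 glycolytic genes and 17792 protein-coding genes. The respiratory and genome-wide curves have medians of 34.6 and 34.4, and the glycolytic curve has a median of 39.3.

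The replicates' own ranked lists placed the lists differently. In replicate 1 the median percentile was 45.7 over 31 respiratory genes and 71.5 over 17 glycolytic genes. In replicate 2 it was 62.2 over 24 respiratory genes and 48.8 over 18 glycolytic genes. The glycolytic genes thus stood above the respiratory genes in replicate 1 and below them in replicate 2. A gene with no summit in a replicate's list has no percentile there, and replicate 2 lacked a summit at 10 respiratory genes but at no glycolytic gene. A further way of counting, added after the data were seen, gave genes without a summit a signal of 0. The medians in replicate 2 were 62.9 for respiratory and 63.0 for glycolytic genes, and in replicate 1 they were 55.7 for respiratory and 78.3 for glycolytic genes. The glycolytic list was therefore higher in replicate 1 under both ways of counting, while in replicate 2 it was lower under the one and level with the respiratory list under the other. Genes are not replicates, and no test was made of these medians.

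**Figure D2:**
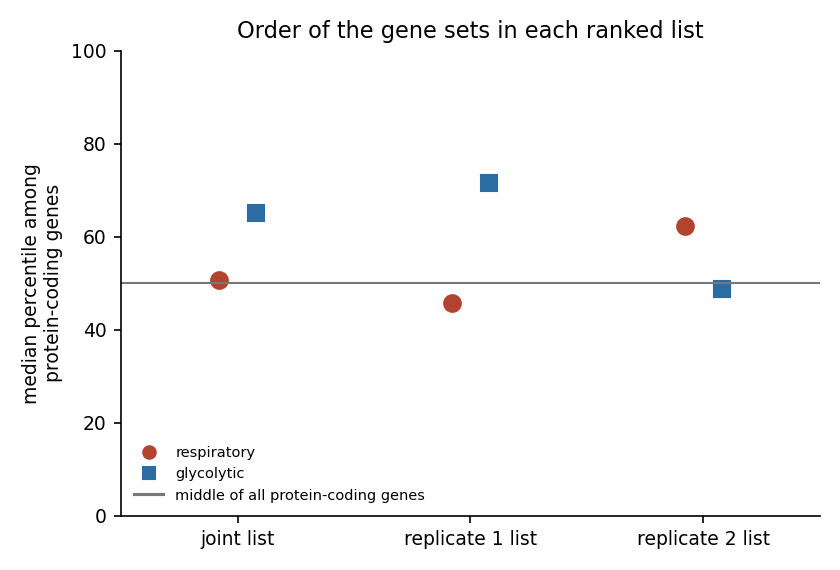
Median percentile of the members' highest signal among protein-coding genes (vertical axis) in the joint ranked list and in the list of each replicate (horizontal axis), for respiratory genes (circles) and glycolytic genes (squares). The squares lie above the circles in the joint list and in replicate 1, and below them in replicate 2 (48.8 against 62.2).

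The replicates agreed in part on which members were high. Spearman's rho between the replicates' highest signals was 0.389 over 23 respiratory genes, 0.679 over 17 glycolytic genes and 0.262 over 11734 protein-coding genes with a summit in both lists. These coefficients describe genes that share 2 libraries, and they carry no p-value. Signals in the uppermost 10% of both replicates' lists were found at 5 of 40 members (12.5%), namely cox-5A, nuo-5, cox-6A, gpd-3 and aldo-1, compared with 3.82% of protein-coding genes with a summit in both lists. In position the replicates were less alike: both had their highest summit within 100 bp of the joint one at 6 respiratory genes (18.2%) and 6 glycolytic genes (33.3%), compared with 20.9% of all protein-coding genes.

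**Figure D3:**
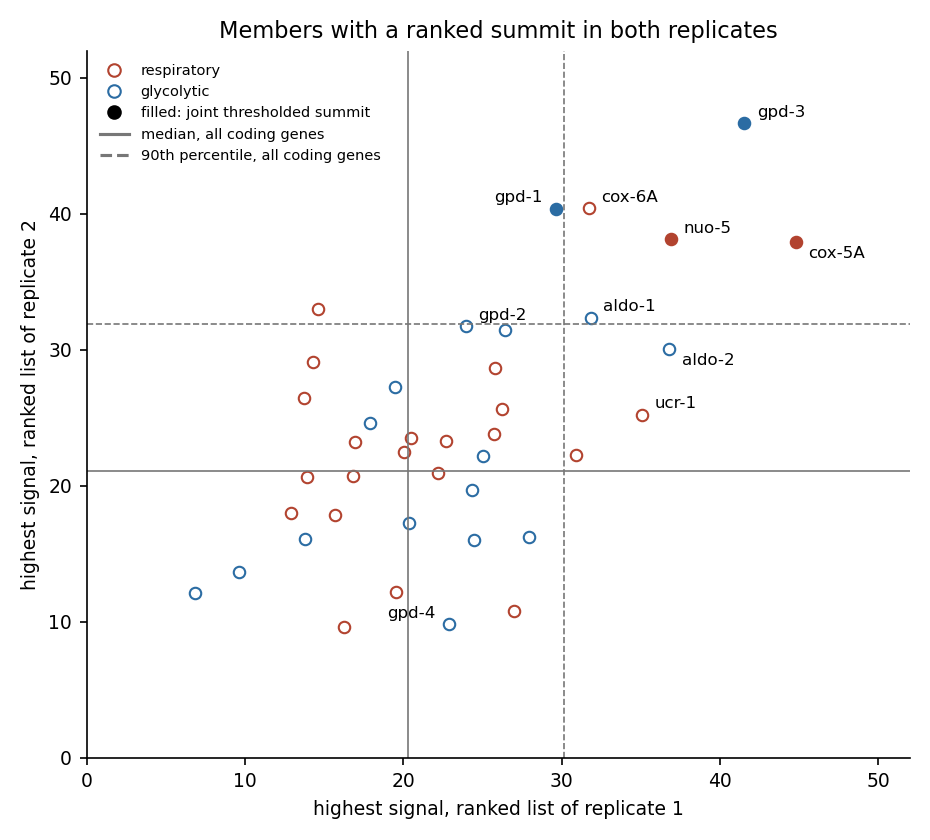
Highest signal of each member in the ranked list of replicate 1 (horizontal axis) and replicate 2 (vertical axis), for the 40 members with a summit in both. Lines mark the median and 90th percentile of all protein-coding genes, and only gpd-3, cox-5A, nuo-5, cox-6A and aldo-1 lie beyond both 90th percentiles.

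The thresholded list held 2 of 33 respiratory genes, which is 6.06% (95% Wilson interval 1.68 to 19.6%), and 2 of 18 glycolytic genes, which is 11.1% (3.10 to 32.8%), while 1.93% of all protein-coding genes with a ranked summit had one. Intervals cover counting error only and treat genes as independent, although the gpd genes share sequence. In the authors' conservative list the members were cox-5A, nuo-5, cox-6A and gpd-3, so that 3 were respiratory and 1 glycolytic, and the genome-wide share was 1.74%. The lists thresholded on 1 replicate alone held none of the 52 members. Their genome-wide shares were 0.253% in replicate 1 and 0.264% in replicate 2, close to the 0% of the members.

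The threshold passed close to several members. The last inside was gpd-1, with a global IDR of 0.00995 at a signal of 71.8, and the first outside was cox-6A, with 0.0182 at a slightly higher signal of 72.0. Next came ucr-1 at an IDR of 0.0290, aldo-2 at 0.0308, aldo-1 at 0.0377 and gpd-2 at 0.0562. In the authors' other joint ranked list gpd-1 had a −log10 IDR of 1.84 and cox-6A one of 2.12, the reverse of their order in the list used, where gpd-1 had 2.00 and cox-6A 1.74. Which of these 2 genes counted as called therefore depended on the list.

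**Figure D4:**
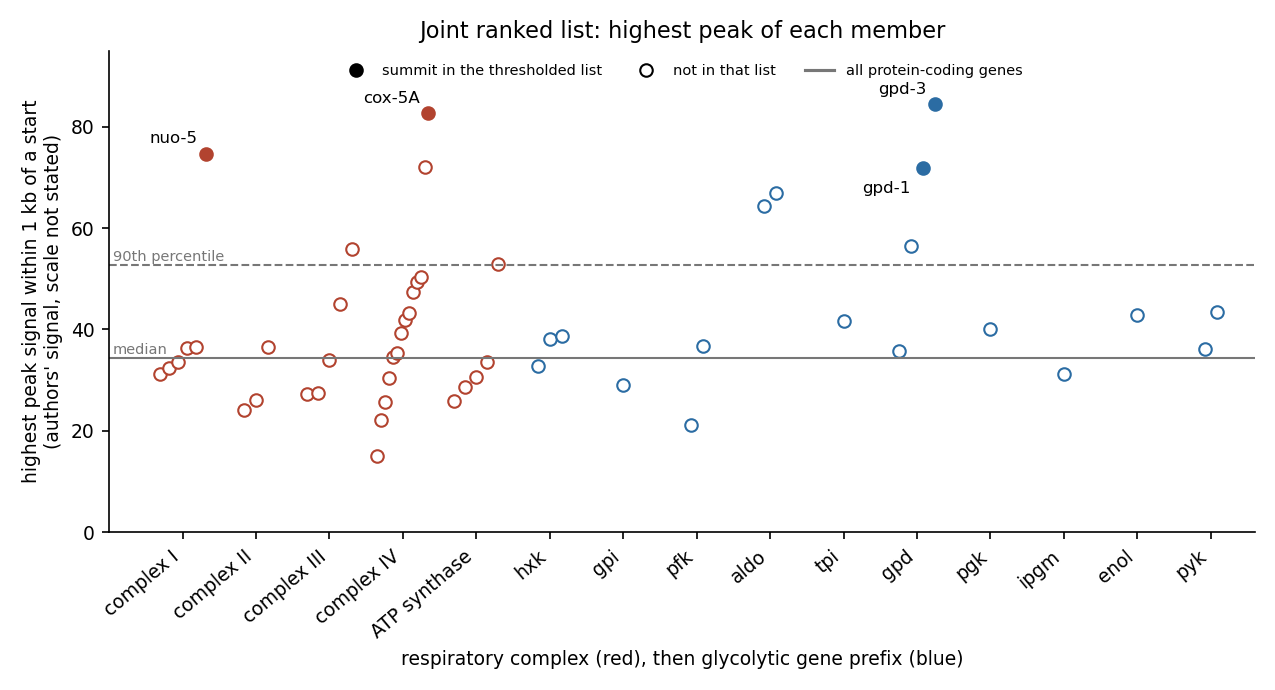
Highest peak signal within 1 kb of a start (vertical axis, the authors' signal) for each of the 51 members with a ranked summit, by respiratory complex and then by glycolytic step (horizontal axis). Filled points have a summit in the thresholded list, and grey lines mark the median (34.4) and 90th percentile (52.7) of all protein-coding genes.

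Complex I takes electrons from NADH. Its 6 nuo genes ranged from 31.2 to 74.7 in signal, with a median percentile of 51.4, and 5 of them lay within 31.2 to 36.5, around the genome-wide median. The sixth was nuo-5, whose summit lay 50 bp downstream of its start in coding exon 1 of 5. Its highest signal was 36.9 in replicate 1 and 38.2 in replicate 2, at percentiles 97.2 and 96.6 of the replicates' lists. It was the only ranked summit within 1 kb of a nuo-5 start, no other coding gene started within 1 kb of it, and its 30-base words each occurred once in the genome. The other 5 nuo genes had 13.3 to 21.5 in replicate 1, and in replicate 2 only nuo-3 of them had a summit, at 22.5. Among the nuo genes nuo-5 was thus the highest in both replicates.

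Complex II, succinate dehydrogenase, also belongs to the citric acid cycle. Its 3 members (sdha-1, sdha-2 and sdhb-1) had the lowest median percentile of the respiratory complexes, 23.9, with signals from 24.1 to 36.6. Complex III passes electrons from ubiquinol to cytochrome c, and its 5 ucr genes had a median percentile of 48.5. The highest was ucr-1, which encodes a core subunit, at a signal of 56.0 with a summit 310 bp downstream of its start in coding exon 2 of 10. Its signal was 35.1 in replicate 1 and 25.2 in replicate 2, at percentiles 96.1 and 70.7. It was therefore high in replicate 1 and only moderately above the middle in replicate 2.

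Complex IV, cytochrome c oxidase, reduces oxygen, and its 15 cox genes included both ends of the respiratory list. Genes numbered below 10 encode subunits, and those numbered 10 or higher are named for assembly factors, which insert haem and copper or help build the enzyme. The median percentile was 71.9 over the 7 subunit genes and 53.3 over the 7 assembly genes with a summit. The highest member was cox-5A at a signal of 82.7, with a summit 340 bp upstream of its start, outside any annotated protein-coding gene. Its signal was 44.8 in replicate 1 and 37.9 in replicate 2, at almost the same place in both (347 and 307 bp upstream). No word of this peak was repeated in the genome and no other coding gene started within 1 kb. The lowest was cox-18, named for an assembly factor in other species, with a signal of 15.1 in an intron and no summit in either replicate's own list.

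The cox-6A peak lay on another gene. Its summit was 859 bp upstream of the cox-6A start and 33 bp into the small nuclear RNA gene F54D8.7, all 101 bases of which lay inside the peak. Of the 30-base words of the peak, 82 (34.9%) were repeated, up to 24 times, and 73 of those 82 occurred in annotated snRNA genes. Replicate 1 gave 31.7 and replicate 2 gave 40.4. The nearest coding start was that of cox-6A, so the assignment follows from distance alone. Short RNA genes also started within 1 kb of the highest summits of sdha-1 (a snoRNA) and cox-10 (a tRNA), neither of which the peak touched. In all, 3 respiratory genes (9.09%) and no glycolytic gene had one, against 2.79% of all protein-coding genes. The part these RNA genes have in the signals was not tested.

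The 5 atp genes of ATP synthase had a median percentile of 37.5 and signals from 25.8 to 53.0. The highest was atp-4, named for a peripheral subunit of the enzyme, with a summit 38 bp into coding exon 1 of 2. At that peak replicate 1 had a signal of 25.7. Replicate 2 had no ranked peak there, and its highest summit lay 605 bp downstream at 23.8. The joint value of atp-4 thus did not have the same support from both replicates.

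On the glycolytic side, the genes of the early steps lay between percentiles 11.8 (pfk-1.1) and 63.3 (hxk-3) of all protein-coding genes in the joint list. The 3 hexokinase genes (hxk), whose products phosphorylate glucose, had signals of 32.8 to 38.6, and gpi-1, the isomerase of the next step, had 29.1. Phosphofructokinase commits sugar to glycolysis, and of its genes pfk-1.1 was the lowest glycolytic member, at 21.1 in an intron. Replicate 2 had 12.1 at that peak, and replicate 1 had no ranked peak there, its highest signal within 1 kb being 6.83 at 933 bp upstream. Its paralogue pfk-1.2 had 36.7 in the joint list, at percentile 57.1, but was low in both replicates' own lists. Its highest signal was 9.62 in replicate 1, 584 bp from the joint summit, and 13.7 in replicate 2. These were percentiles 3.33 and 12.2 of the replicates' lists.

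Both aldolase genes, whose products split fructose 1,6-bisphosphate, had higher signals than the genes of every other step except that of the gpd genes. The summit of aldo-2 had a signal of 66.9 and lay 97 bp downstream of its start in the 5′ UTR. Replicate 1 had 36.8 there and replicate 2 had 30.1. The summit of aldo-1 had 64.4 and lay 102 bp upstream of its start, with 31.8 in replicate 1 and 32.4 in replicate 2. Each gene had its highest summit at the same place in both replicates and in the joint list, within 100 bp, and neither peak held a repeated word. Both were in the uppermost 10% of the joint list without reaching the thresholded list. What lies behind the signals of these 2 genes was not tested.

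The remaining single steps lay between percentiles 39.2 (ipgm-1) and 74.1 (enol-1) of the joint list. Triose phosphate isomerase (tpi-1) had 41.7, phosphoglycerate kinase (pgk-1) 40.01, phosphoglycerate mutase (ipgm-1) 31.1 and enolase (enol-1) 42.9. The pyruvate kinases, of the last step, had 43.5 at pyk-1 and 36.1 at pyk-2. The joint tpi-1 peak, 710 bp upstream, had 21.7% repeated words, with up to 36 copies and none of them in an annotated snRNA gene. Both replicates had their highest tpi-1 summit elsewhere, 68 bp downstream at 26.4 in replicate 1 and 25 bp downstream at 31.5 in replicate 2. For enol-1 the replicates' highest summits lay 1677 and 2701 bp from the joint one, whereas for pgk-1 they lay 39 and 11 bp from it. Without the gpd genes the other 14 glycolytic genes had a median percentile of 62.4 and none was in the thresholded list.

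Of the 4 gpd genes, gpd-3 and gpd-1 had the highest glycolytic signals, gpd-2 came after both aldolase genes and gpd-4 lay near the genome-wide median. All 4 had their highest summit in the same stretch of the coding sequence. Signals were 84.4 at gpd-3, 71.8 at gpd-1, 56.4 at gpd-2 and 35.7 at gpd-4, at percentiles 99.3, 98.4, 93.1 and 53.9 in the same order. The summits lay 820 bp (gpd-3), 828 bp (gpd-1), 886 bp (gpd-2) and 860 bp (gpd-4) downstream of the start, in coding exon 2 of 3 for gpd-1 and gpd-4 and exon 3 of 3 for gpd-2 and gpd-3. Placed on one another by alignment, the summits of any pair of these genes were 7 to 92 bp apart. With a window of 500 bp in place of 1 kb, no gpd gene had a thresholded summit. The joint list did hold a second high gpd-3 summit, 356 bp downstream of the start, with a signal of 71.5. Its −log10 IDR was 1.77, and 22.1% of its words were repeated.

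In the replicates, gpd-3 had 37.1 in replicate 1 and 46.7 in replicate 2 at this place. The second summit of gpd-3, 346 bp into the gene in replicate 1, was higher still there, at 41.6. In replicate 2 a summit 405 bp into gpd-3 had 27.1. For gpd-1 the values were 28.0 in replicate 1 and 40.4 in replicate 2, and replicate 1 had its highest summit elsewhere, 651 bp upstream, at 29.7. Thus gpd-3 was high in both replicates, and gpd-1 chiefly in replicate 2. At gpd-2 the signal was 24.0 in replicate 1 and 31.8 in replicate 2. At gpd-4 it was 22.9 in replicate 1 and 9.84 in replicate 2, which is percentile 2.95 of the replicate 2 list.

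**Figure D5:**
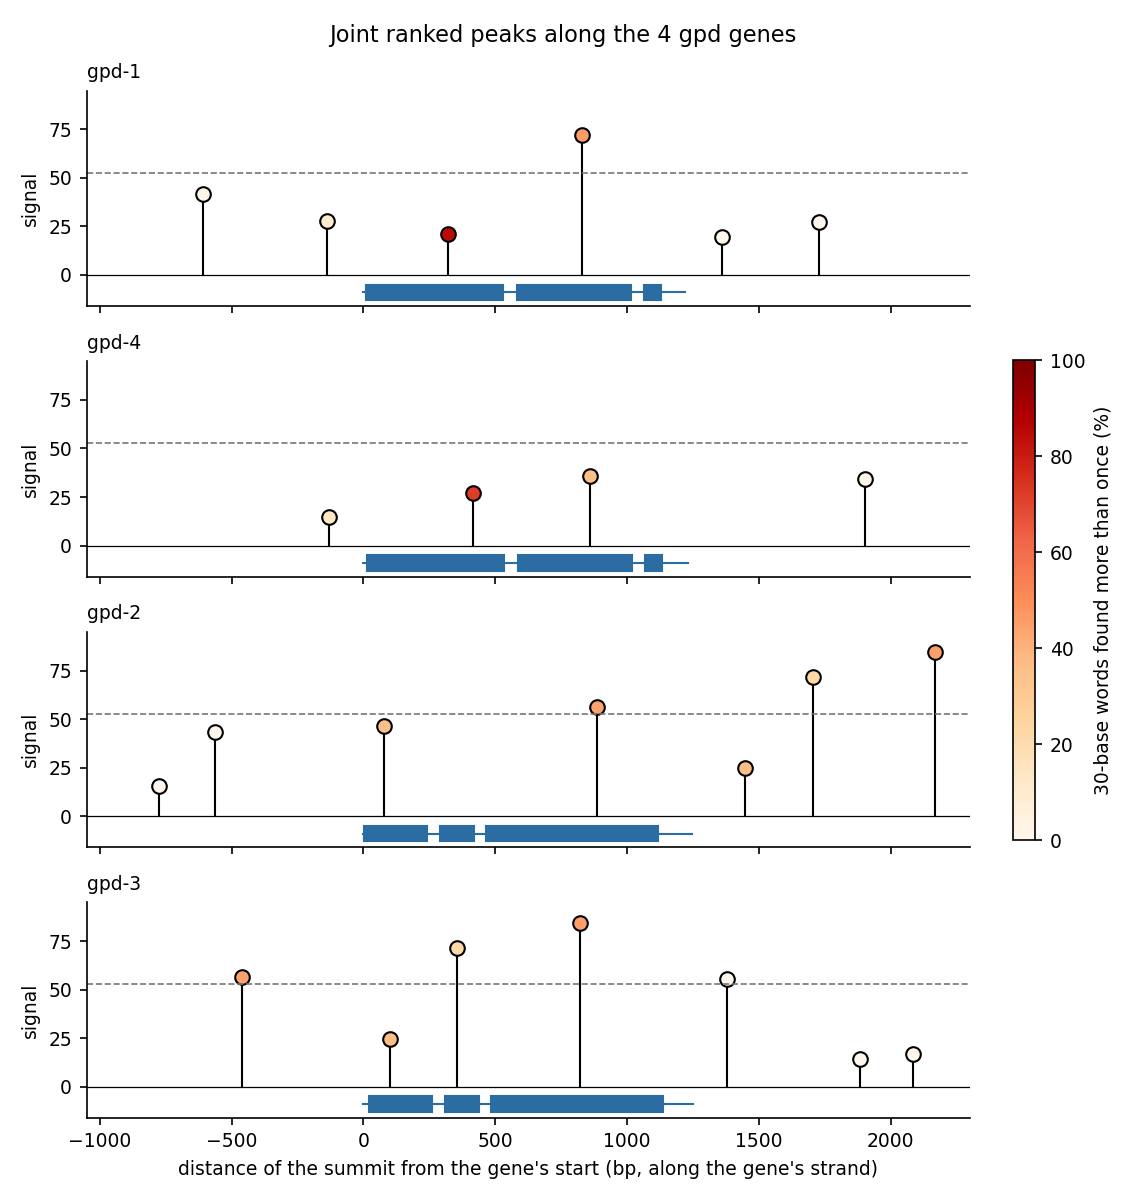
Joint ranked peaks along the 4 gpd genes, with signal on the vertical axes and the distance of the summit from the gene's start (bp) on the horizontal axis. Boxes are coding exons, darker points have a larger share of repeated 30-base words, the dashed line is the 90th percentile of all protein-coding genes (52.7), and the gpd-2 panel shows peaks of the adjacent gpd-3 on its right.

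Repeated sequence was present in the highest peak of every gpd gene, and its other copy lay in the paired gene. Of the 30-base words in each peak, 108 were repeated at gpd-1 (46.0%), 104 at gpd-2 (44.3%), 106 at gpd-3 (45.1%) and 84 at gpd-4 (35.7%). Each repeated word occurred exactly 2 times in the genome. All repeated words of gpd-1 had their other copy in gpd-4 and all of gpd-4 in gpd-1, and the same held between gpd-2 and gpd-3. No word was shared between the pairs or with any other locus alone. Over the whole gene, gpd-1 and gpd-4 were identical at 98.5% of 1221 aligned bases, gpd-2 and gpd-3 at 93.5% of 1208, and genes of different pairs at 78.6 to 79.9%. The coding sequences were identical at 99.02% for gpd-1 and gpd-4 and at 97.4% for gpd-2 and gpd-3. The repeated share of each whole gene was 69.1% at gpd-1, 68.6% at gpd-4, 41.9% at gpd-2 and 41.7% at gpd-3. It was thus larger than in the highest peak for gpd-1 and gpd-4, and a little smaller for gpd-2 and gpd-3. Joint summits with larger repeated shares had lower signals at gpd-1 (84.7%, signal 21.3) and gpd-4 (71.9%, signal 27.0).

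The printed sequences show how the copies differ. In gpd-1 and gpd-4 the capitals are broken by single bases and short stretches, and the longest run of capitals is 71 bases in both. In gpd-2 and gpd-3 it is 65 bases. The 30-base word at the summit occurred 2 times for gpd-3, the 4 genes' highest peak, and once for gpd-1, gpd-2 and gpd-4. A read that lies wholly within such a run matches both copies of the pair, whereas a read that reaches past it need not. With 50-base words the median repeated share of these peaks was 14.4%. How the authors treated reads with more than 1 match is not given in the sources used here. For such reads the signal of a gene cannot be told apart from that of its copy. Within the pairs, the signals were 71.8 at gpd-1 and 35.7 at gpd-4, and 84.4 at gpd-3 and 56.4 at gpd-2. No repeated word links the pairs. The part repeated sequence has in these values was not tested.

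Among all members, at least 25% repeated words were found in the highest peak of 1 respiratory gene (cox-6A, 3.03%) and 4 glycolytic genes (the gpd genes, 22.2%), compared with 7.22% of all protein-coding genes. With peaks of this kind left out (added after the data were seen), 2 respiratory genes and 0 glycolytic genes had a thresholded summit, and the median percentiles were 50.4 for respiratory and 66.8 for glycolytic genes.

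Neighbouring genes bore on the assignment of the gpd peaks as well. The summit in gpd-1 was 828 bp from its own start and 750 bp from that of T09F3.4, and the summit in gpd-4 was 795 bp from the start of wbp-11. The summit in gpd-2 was 462 bp from the start of the adjacent gpd-3. Only the highest summit of gpd-3 was nearest to its own start. Some respiratory genes of complexes I, III and IV and of ATP synthase also had their highest summit inside another protein-coding gene. The signals of these genes are thus assigned by distance to a start only. By the rule of nearest start alone, 1 glycolytic gene (gpd-3) kept a thresholded summit, and cox-5A and nuo-5 both kept theirs. The median percentiles under that rule were 42.5 for respiratory and 65.7 for glycolytic genes.

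The place of the summits differed somewhat between the lists. The highest summit lay downstream of the start for 57.6% of respiratory genes, 77.8% of glycolytic genes and 55.6% of all protein-coding genes. It fell in a coding exon of the gene itself for 39.4%, 61.1% and 32.8% in the same order of gene sets. The median GC content of these peaks was 41.3% for respiratory genes, 45.8% for glycolytic genes and 39.4% for all protein-coding genes. At the gpd genes it was 52.5%. The other 14 glycolytic genes had 71.4% of summits downstream, 50% in a coding exon and a median GC content of 42.2%. Coding sequence is richer in GC than intergenic sequence in this species, and these measures were not separated.

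Many nuclear hormone receptors bind copies of the half-site AGGTCA, so this word was sought on both strands of each highest peak, although the sequence preference of NHR-120 was not available here. It was found in 0 of 33 respiratory peaks, 2 of 18 glycolytic peaks (11.1%) and 7.35% of the 16081 distinct highest peaks of all protein-coding genes, with the same median peak width in each set. None of the printed peaks held it. A match or its absence in these windows is a description only.

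Related genes were counted from lists drawn up by function. Of 39 other genes of electron transport, 37 had a ranked summit, with a median percentile of 55.4 and 1 in the thresholded list. That gene was nduf-9, a complex I subunit, whose peak lay 651 bp upstream of its start with a signal of 84.2. Its highest signal within 1 kb was 22.7 in replicate 1 and 60.2 in replicate 2, each in the replicate's own list and not necessarily at the joint summit, as for the other related genes below. The start of another coding gene and that of the microRNA gene cel-mir-4936 were also within 1 kb of it. Of 24 genes of the citric acid cycle and pyruvate dehydrogenase, 21 had a summit and the median percentile was 80.4, higher than that of either member list. Here mdh-1, a malate dehydrogenase, was in the thresholded list at 73.9, with highest signals of 39.6 in replicate 1 and 41.5 in replicate 2, and dpy-11 started within 1 kb of the joint summit. The median percentile of this citric acid cycle list was 71.6 in replicate 1 and 64.3 in replicate 2.

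Of 23 genes of glucose side branches (gluconeogenesis, glycogen, the pentose phosphate path and others) all had a summit, with a median percentile of 64.8 and 2 in the thresholded list. One was pck-2, a phosphoenolpyruvate carboxykinase, an enzyme of gluconeogenesis. It had a joint signal of 90.5 in its 5′ UTR, at a peak with 71.5% repeated words, and highest signals of 41.8 in replicate 1 and 56.9 in replicate 2. The other was pyc-1, pyruvate carboxylase, which feeds the same path. It had a joint signal of 66.0 in a coding exon, at a peak with no repeated word, and highest signals of 46.9 in replicate 1 and 40.7 in replicate 2. The part repeated sequence has in the signals of these genes was not tested.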

How the data were processed

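Chromatin from whole young adults of 1 group (2 biological replicates) was sonicated and precipitated with an anti-GFP antibody, per the labels. The authors deposited peak lists on ce11, with a signal value of unstated scale and, in ranked lists, a −log10 global IDR. Per the deposited file descriptions, 4 lists came from both replicates (main thresholded 610 peaks, conservative 555, ranked 115573 and 114571), and each replicate had a ranked list (60719 and 58785 peaks in replicates 1 and 2) and a thresholded one (89 and 96). The sources used here name no aligner, peak caller or use of a control.

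Genes came from Ensembl release 115 (WBcel235, the assembly called ce11) and sequence from RefSeq's copy of that assembly, with no peak past a chromosome end. A gene took its highest signal with a summit within 1000 bp of a transcript start. Signals were the authors' own and were not rescaled, and no test across samples was possible with 1 group. Named genes are those with a thresholded summit, the 5 highest and the lowest of each list, all gpd genes, members without a summit, and related genes with a thresholded summit. Values of other members named by complex or step serve to give its range. The members, lists and most alternatives were chosen with earlier results of these data known, and the half-site search was added later. Of 25 side-branch symbols 2 were not matched, nor were 11 mitochondrial ones. Python 3.11.15, numpy 2.4.6, scipy 1.17.1 and Biopython 1.88 (global alignment) were used, and the scripts' counting was tested on simulated data. Some peak sequences are not reported here.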

Additional observations from a re-analysis of the deposited data

How the results depend on the processing

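The lists hold no counts, so what depth limits could not be measured. No paired analysis was possible because there is 1 group. The 2 respiratory genes in the thresholded list became 1 (cox-5A) among the upper 50% of peaks by signal. The 2 glycolytic genes became 0 with a window of 500 bp, 1 by nearest start only, 1 in the conservative list, 1 in the upper 50%, and 0 without the gpd genes or without peaks with 25% or more repeated words, settings chosen after seeing the data. With 1 replicate's lists alone both counts were 0 in either replicate. The respiratory median percentile was 64.2 with a window of 2000 bp, and 45.7 to 62.2 with 1 replicate. It was 55.7 to 62.9 with 1 replicate when genes without a summit counted as 0 as well. The glycolytic median was 48.8 to 71.5 with 1 replicate, and 63.0 to 78.3 when genes without a summit counted as 0 as well. The respiratory minus glycolytic difference, -14.5, was -25.8 to 13.5 with 1 replicate, its sign turning in replicate 2 alone (13.5). It was -0.073 in replicate 2 when genes without a summit counted as 0. The median repeated share at gpd peaks, 44.7%, was 60.2% with 20-base words and 14.4% with 50-base words, which follows from the word length. Other alternatives moved the medians by less than the SD between replicates, a wide bar that rests on 2 values. This SD was 11.7 for the respiratory median, 16.0 for the glycolytic median and 27.7 for their difference. The last is larger than the size of the difference itself, so staying within it says little about stability. The causes were not tested.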
